A study of Danio rerio with 12 samples.

Results

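The inner arm dynein heavy chains are the motor subunits of the inner row of dynein arms on the ciliary axoneme. The genes dnah1, dnah2, dnah3, dnah6, dnah7, dnah10 and dnah12 were chosen by name, as the zebrafish heavy chain genes assigned to the inner arms that carry an Ensembl identifier in the deposited table. These 7 genes are among 31953 in that table, and all 7 were among the 17609 tested. They were measured by RNA sequencing of dorsal forerunner cell (DFC) clusters, the cells that build Kupffer's vesicle, the ciliated left-right organizer of the zebrafish embryo. Clusters were dissected at 90% epiboly from Tg(sox17:gfp) embryos, whose GFP marks these cells, raised at 29 °C after injection at the 1-cell stage. There were 3 groups of 4 libraries, from embryos injected with a morpholino against Vgll4l, with morpholinos against Yap1 and Wwtr1 together (Yap/Taz knockdown), or with a control morpholino. Vgll4l is a transcriptional cofactor of the Vestigial-like family, and Yap and Taz are the transcriptional coactivators of the Hippo pathway. Injection at that stage puts a morpholino into the whole embryo, so the knockdowns were not limited to DFCs, and all 3 groups carried the transgene and a morpholino.

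Axonemal dyneins walk along microtubules and bend the cilium. The outer arms mainly set beat frequency and the inner arms mainly shape the bend. Inner arms come in several forms, each with its own heavy chain. The double-headed form carries DNAH2 and DNAH10 on an intermediate and light chain complex, and the single-headed forms carry DNAH1, DNAH3, DNAH6, DNAH7 or DNAH12 with actin and the light chain DNALI1 or centrin, as worked out mostly in Chlamydomonas and in mammals. In Kupffer's vesicle, motile cilia drive the fluid flow that precedes left-right asymmetry.

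Recovered reads per library numbered 8698990 to 11235726 after Vgll4l knockdown, 9071323 to 10774775 after Yap/Taz knockdown and 4487894 to 6148871 in controls. Values are normalized counts, that is, reads divided by the size factor of each library. The knocked-down genes were read first (mean ± SD, n = 4 each). The vgll4l gene averaged 1062 ± 43.9 in Vgll4l-depleted clusters and 1606 ± 53.6 in Yap/Taz-depleted clusters, against 6944 ± 266 in controls. The yap1 gene averaged 1784 ± 30.5 after Yap/Taz knockdown and 1442 ± 76.5 after Vgll4l knockdown, against 2250 ± 116 in controls. It was thus lowest in the Vgll4l-depleted clusters, not in those with the Yap1 morpholino. The wwtr1 gene had low counts, with means of 8.97 ± 2.05 after Yap/Taz knockdown and 2.37 ± 1.23 after Vgll4l knockdown, and 0 in all 4 controls. It was thus not lower in its own knockdown but higher (log2 3.29, adjusted p = 5e-08 in limma). After Vgll4l knockdown it was higher too (log2 1.67, adjusted p = 5.4e-05 in limma). A morpholino can block translation without removing the RNA, so these levels check the labels only in part. All 6 DFC markers looked up (sox17, sox32, foxj1a, tbxta, tbx16 and cftr) were detected in every group. Vgll4l replicate 2 stood apart: over genes, its variance against the other Vgll4l libraries was 10.9 to 16.6 times counting noise, against 1.99 to 3.42 times among those others. Controls 1 and 2, and controls 3 and 4, differed within each pair by 1.76 to 1.94 times counting noise and across pairs by 4.91 to 6.78 times, and the Yap/Taz libraries differed by 1.75 to 2.64 times. The labels number the libraries as replicates 1 to 4, and the study's methods call them biological replicates. The p-values measure the spread between these libraries, with 1 estimate for each gene shared by the 3 groups. Scatter in 1 group therefore enters the comparison of the others. How much of that spread is biological was not tested.

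Loss of either factor came with far lower transcript levels of most inner arm heavy chains, and the sets were not identical. After Vgll4l knockdown 6 of the 7 genes fell (dnah1, dnah2, dnah6, dnah7, dnah10 and dnah12) and dnah3 did not pass. After Yap/Taz knockdown 5 fell (dnah1, dnah6, dnah7, dnah10 and dnah12), dnah3 rose, and dnah2 did not pass. To pass, a gene needed an adjusted p below 0.05 and a log2 fold change of 1 or more in either direction, in limma on log2(normalized count + 1). Because that scale adds 1, it understates the change of low genes. The background was high: of all genes tested, 40.9% passed as lower and 30.5% as higher after Vgll4l knockdown, and 38.7% as lower and 30.0% as higher after Yap/Taz knockdown. A lower call alone was therefore common in these data. The median log2 fold change of the 7 genes was -3.52 after Vgll4l knockdown, where the median of all genes tested was -0.26, and -4.48 after Yap/Taz knockdown, where it was -0.27. Setting dnah1 at its bound could not move either median, since dnah1 already lay below both. Both comparisons use the same 4 control libraries. The 7 genes were chosen with earlier results of these data known, so no p-value is given for them as a group.

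**Figure D1:**
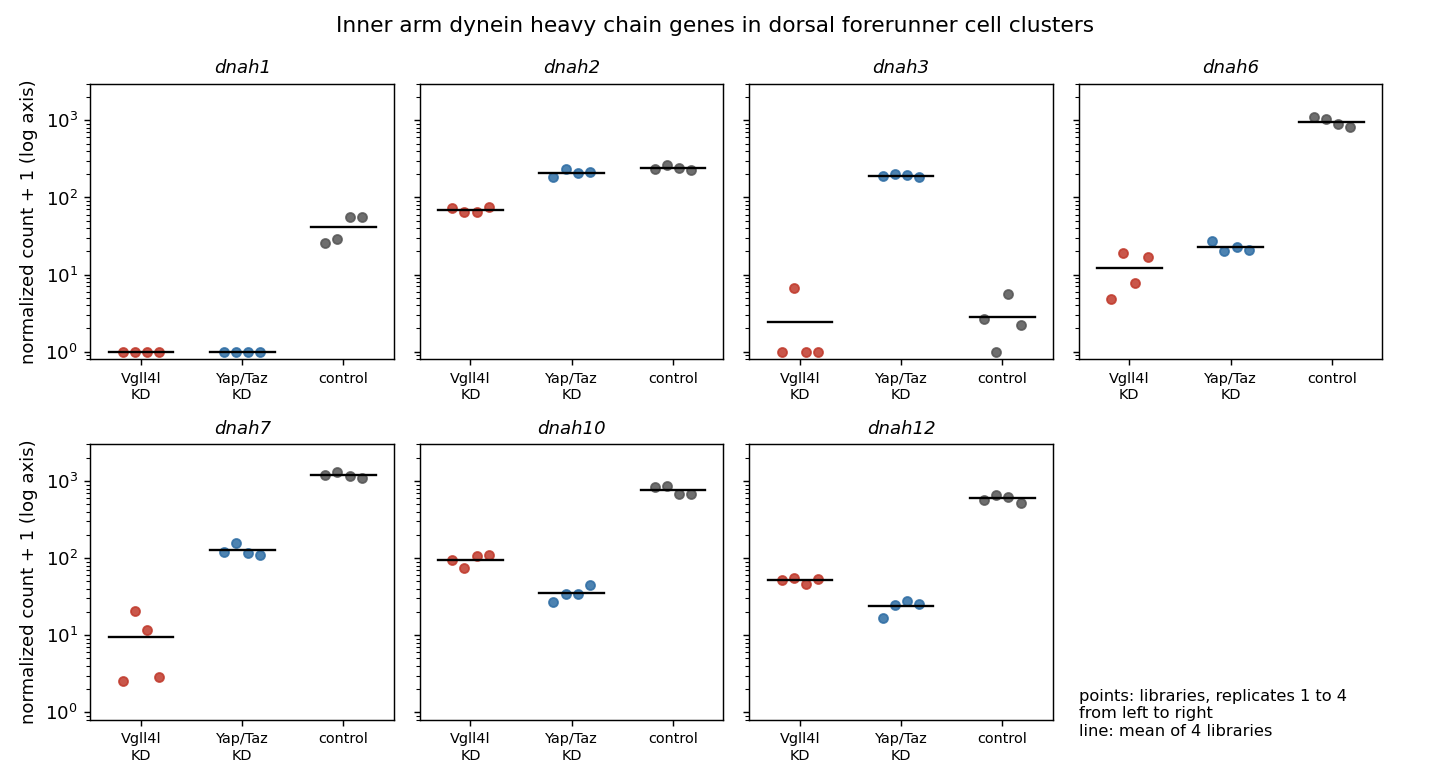
Normalized count + 1 of each inner arm heavy chain gene on a log axis, with 1 point per library (replicates 1 to 4 from left to right) and a line at the mean of 4 libraries. KD stands for knockdown. For dnah1, dnah6, dnah7, dnah10 and dnah12 all 4 controls lie above all 8 knockdown libraries, whereas dnah3 is high in the 4 Yap/Taz knockdown libraries alone.

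The double-headed arm is described first. DNAH10 is 1 of its heavy chains. Its gene dnah10 (ENSDARG00000061486) had normalized counts of 93.2, 73.6, 104.6 and 108.7 in the Vgll4l-depleted clusters and 26.0, 33.5, 33.2 and 43.8 in the Yap/Taz-depleted clusters, against 842, 876, 690 and 687 in controls. The 3 groups did not overlap, and the Yap/Taz libraries were the lowest. Non-overlap was itself common: of all genes tested, 79.2% had separate Vgll4l and control libraries, 80.9% separate Yap/Taz and control libraries and 75.3% separate Vgll4l and Yap/Taz libraries. Its log2 fold change was -3.02 in Vgll4l-depleted clusters (SE 0.17, adjusted p = 5.8e-10) and -4.48 in Yap/Taz-depleted clusters (SE 0.17, adjusted p = 1.4e-11). Expressed per control mean, 12.3% of the dnah10 level was left in Vgll4l-depleted clusters and 4.41% in Yap/Taz-depleted clusters.

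The partner heavy chain of the double-headed arm behaved otherwise. The dnah2 gene (ENSDARG00000087352, without a symbol in the table and named from the reference) had 71.8, 64.2, 63.5 and 74.6 normalized counts with Vgll4l depleted and 182, 233, 206 and 214 with Yap/Taz depleted, against 232, 264, 241 and 224 in controls. The Vgll4l libraries lay below all others, and the highest Yap/Taz library lay within the control range. Levels fell by 1.79 after Vgll4l knockdown (SE 0.10, adjusted p = 9.6e-10), leaving 28.5% of the control mean. The difference between Yap/Taz knockdown and control was -0.20 on the log2 scale, with a 95% interval from -0.43 to 0.02 (adjusted p = 0.082), and the mean was 86.9% of the control mean. Between the knockdowns, dnah2 was lower after Vgll4l knockdown by a log2 difference of -1.59 (adjusted p = 4.4e-09), whereas dnah10 was higher by 1.46 (adjusted p = 1.6e-06). The 2 heavy chains of the double-headed arm thus differed between the knockdowns in opposite directions.

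Among the single-headed arms, dnah7, dnah6 and dnah12 fell after both knockdowns with reads left in each group. The dnah7 gene (ENSDARG00000060165) had 1.53, 19.8, 10.7 and 1.84 normalized counts in Vgll4l-depleted clusters and 119.9, 156, 115 and 110.2 in Yap/Taz-depleted clusters, against 1211, 1332, 1180.3 and 1094 in controls. The 3 groups were separate, with the Yap/Taz libraries between the others. The log2 fold change was -7.54 in Vgll4l-depleted clusters (SE 0.53, adjusted p = 7.3e-09) and -3.27 in Yap/Taz-depleted clusters (adjusted p = 5e-05). The SE was the same in both comparisons and takes in the scatter of the low Vgll4l libraries. Without Vgll4l replicate 2, which had the highest dnah7 value of its group, the Vgll4l change was -8.10. When libraries that were nearly alike were averaged, which leaves 1 Yap/Taz value, the Yap/Taz change was -3.25 and no longer passed. The spread in that fit comes from the Vgll4l and control values alone.

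The dnah6 gene needs a remark on its name. Its identifier, ENSDARG00000000606, is called dnah7l in the deposited table and DNAH6 in the reference used here, and the reference name is used. How far reads were shared between related heavy chain genes was not tested. The dnah6 gene had 3.82, 17.9, 6.84 and 15.7 normalized counts with Vgll4l depleted and 26.0, 19.2, 21.7 and 19.7 with Yap/Taz depleted, against 1104, 1036, 895 and 823 in controls. All 8 knockdown libraries were far below the controls, and no Vgll4l library reached the lowest Yap/Taz library. The log2 fold changes were -6.52 with Vgll4l depleted (SE 0.35, adjusted p = 4.4e-10) and -5.42 with Yap/Taz depleted (adjusted p = 3e-09), leaving 1.15% and 2.24% of the control mean.

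The dnah12 gene (ENSDARG00000059987) had 51.2, 54.8, 44.9 and 52.5 normalized counts in Vgll4l-depleted clusters and 16.0, 24.0, 26.7 and 24.1 in Yap/Taz-depleted clusters, against 570, 662, 629 and 519 in controls. As with dnah10, the groups did not overlap and the Yap/Taz libraries were the lowest. It changed by -3.52 with Vgll4l depleted (SE 0.16, adjusted p = 7e-11) and by -4.67 with Yap/Taz depleted (adjusted p = 5.4e-12), leaving 8.55% and 3.81% of the control mean.

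The dnah1 gene (ENSDARG00000100115) was low in controls and unread after either knockdown. Its normalized count was 0 in all 4 Vgll4l libraries and in all 4 Yap/Taz libraries, against 24.3, 27.5, 54.1 and 54.5 in controls, from 127 reads in all. By the control mean and a floor of 3 reads over each group, dnah1 was at least 59.8-fold lower after Vgll4l knockdown. After Yap/Taz knockdown it was at least 73.6-fold lower, and neither bound takes in the spread of the controls. In limma its log2 fold change was -5.27 in both comparisons, a value that depends on the added 1 (adjusted p = 2.8e-10 for both). A count of 0 allows a group mean of up to 0.670 normalized counts in Vgll4l-depleted clusters and 0.545 in Yap/Taz-depleted clusters, by counting error alone. The control level was split, with replicates 3 and 4 at 2.10 times the mean of replicates 1 and 2. The opposite split was seen in 3 other genes, since dnah6, dnah7 and dnah10 were higher in controls 1 and 2, by 1.25, 1.12 and 1.25 times in that order.

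The dnah3 gene (ENSDARG00000068468) ran against the rest. It had 0, 5.66, 0 and 0 normalized counts with Vgll4l depleted and 188, 200.4, 196 and 182 with Yap/Taz depleted, against 1.62, 0, 4.51 and 1.18 in controls. All 4 Yap/Taz libraries were high and every other library was near 0, with 6 reads in the Vgll4l group, 1053 in the Yap/Taz group and 6 in the control group. The Yap/Taz group exceeded controls by 6.34 on the log2 scale (SE 0.61, adjusted p = 2.5e-07), a ratio of means of 104.7. The Vgll4l group differed from controls by -0.56 (95% interval -1.88 to 0.76, adjusted p = 0.41), which at these read numbers is not a detectable difference. That value rests on Vgll4l replicate 2, the only library of its group with reads: without it the difference was -1.24 and passed (adjusted p = 0.017), a value that depends on the added 1 because the remaining Vgll4l libraries are at 0.

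**Figure D2:**
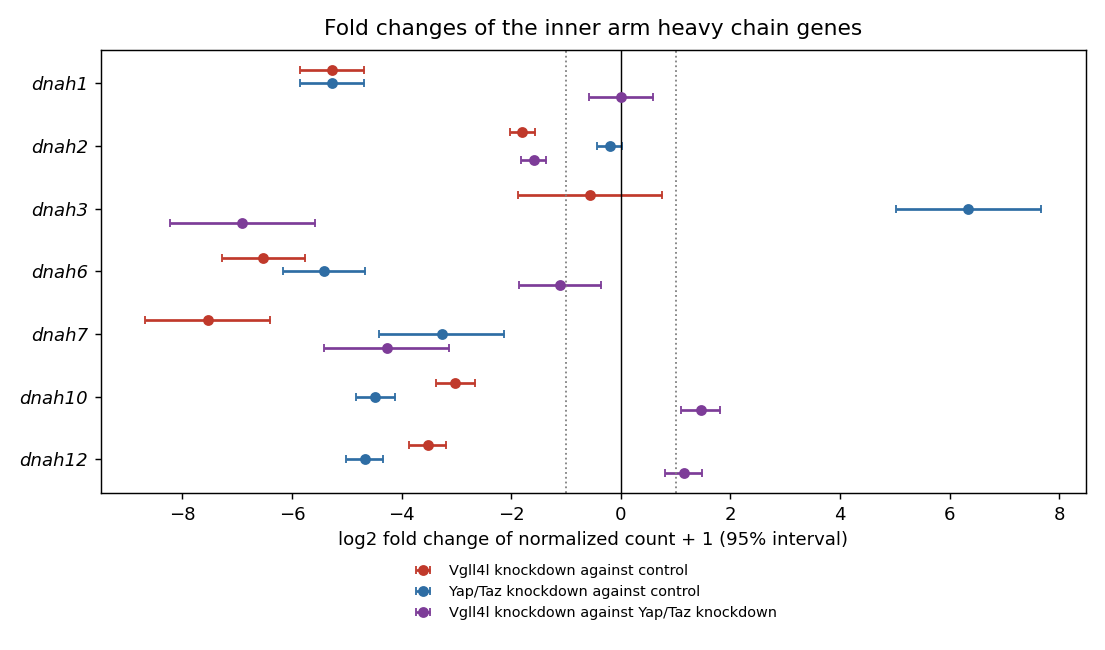
Log2 fold changes of the 7 genes on log2(normalized count + 1) from limma, with 95% intervals, in 3 comparisons (Vgll4l knockdown against control, Yap/Taz knockdown against control, and Vgll4l knockdown against Yap/Taz knockdown). Dotted lines mark a log2 fold change of 1 in either direction. The values of dnah1 depend on the added 1, since both knockdown groups are at 0, and dnah3 lies at 6.34 after Yap/Taz knockdown while 5 genes lie at -3.27 or below.

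The direct comparison of the knockdowns divided the genes. Of the 7, 4 were lower after Vgll4l than after Yap/Taz knockdown (dnah2, dnah3, dnah6 and dnah7) and 2 were higher (dnah10 and dnah12), while dnah1 was at 0 in both. Among all genes tested, 33.2% passed as lower and 30.0% as higher in this comparison. The log2 difference was -6.90 for dnah3 (adjusted p = 1.1e-07) and -4.27 for dnah7 (adjusted p = 3.8e-06). It was 1.15 for dnah12 (adjusted p = 9.7e-06) and -1.10 for dnah6 (SE 0.35, adjusted p = 0.01). The dnah6 and dnah12 calls lie close to the threshold. The dnah6 difference was -0.73 without Vgll4l replicate 1 and -0.97 without Vgll4l replicate 3, below the fold required, and it was -0.95 in edgeR on recovered reads. The dnah12 difference was 1.00, just under the threshold before rounding, without Yap/Taz replicate 1.

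Added together, the 7 genes had 235 ± 13.4 normalized counts in Vgll4l-depleted clusters and 604 ± 45.2 in Yap/Taz-depleted clusters, against 3820 ± 346 in controls (SD, n = 4 each). This left 6.16% of the control sum in Vgll4l-depleted clusters and 15.8% in Yap/Taz-depleted clusters. The makeup of the sum also differed. The share of dnah3 was 31.8% after Yap/Taz knockdown and 0.0494% in controls, and that of dnah10 was 40.4% after Vgll4l knockdown, 5.66% after Yap/Taz knockdown and 20.2% in controls. The shares of dnah6 and dnah7 were 4.62% and 3.62% after Vgll4l knockdown and 25.2% and 31.6% in controls. These shares are of counts, not of molecules, since the heavy chain transcripts were not corrected for length.

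Markers of DFCs and of neighbouring tissues moved with the groups. The 6 DFC markers together took 0.426% to 0.442% of the normalized counts of a library with Vgll4l depleted and 0.555% to 0.558% with Yap/Taz depleted, against 1.44% to 1.49% in controls. Of these 6, all fell after Vgll4l knockdown, and 5 fell after Yap/Taz knockdown. The count after Vgll4l knockdown was 4 with TMM scaling or in edgeR, and 3 in edgeR with no filter. Among them sox17, which also drives the GFP, averaged 8628 ± 407 after Vgll4l knockdown, 9686 ± 100 after Yap/Taz knockdown and 18140 ± 821 in controls. Its log2 change of -0.90 after Yap/Taz knockdown did not reach the fold required. The enveloping layer list held 16 table entries of surface epithelium. It took 4.02% to 4.56% in Vgll4l-depleted clusters and 0.789% to 0.796% in Yap/Taz-depleted clusters, against 0.547% to 0.586% in controls. Its entry krtt1c19e averaged 1.33, 0 and 0.282 normalized counts in Vgll4l-depleted, Yap/Taz-depleted and control clusters and was not tested. Of 15 genes of this list tested, 12 rose, 1 fell and 2 did not pass after Vgll4l knockdown. After Yap/Taz knockdown 1 rose (krt18a.1), 4 fell (krt5, krt17, agr1 and icn) and 10 did not pass. The median log2 fold change of the 15 was 0.36 there, positive but below the fold required. With TMM scaling or in edgeR the count that rose after Yap/Taz knockdown was 3. The yolk syncytial layer list, 12 genes, took 0.775% to 0.807% with Vgll4l depleted (ttr at 0) and 1.71% to 1.73% with Yap/Taz depleted (mxtx2 and ttr at 0), against 0.358% to 0.390% in controls. Of the 12 yolk syncytial layer genes, 8 rose, 2 fell (apoc1 and ttr) and 2 did not pass after Vgll4l knockdown. After Yap/Taz knockdown 9 of them rose, 1 fell (ttr) and 2 did not pass. In dissected clusters, fewer DFCs and less RNA per DFC cannot be told apart. The part of these tissues in the heavy chain differences was not tested.

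The companion genes were then examined by list, beginning with the other subunits of the inner arms. Of 9 intermediate and light chain genes tested, 4 fell, 1 rose and 4 did not pass after Vgll4l knockdown (median log2 fold change -0.49), and 1 fell, 2 rose and 6 did not pass after Yap/Taz knockdown (median 0.63). The light chain gene dnali1, whose product binds single-headed arms, averaged 11.1 ± 14.0 normalized counts in Vgll4l-depleted clusters and 425 ± 18.7 in Yap/Taz-depleted clusters, against 452 ± 28.2 in controls. It fell after Vgll4l knockdown (log2 -5.81, adjusted p = 3.6e-08) and differed by -0.09 after Yap/Taz knockdown (adjusted p = 0.89). The intermediate chain gene dnai3 of the double-headed arm averaged 5.79 ± 3.87 with Vgll4l depleted and 136 ± 16.8 with Yap/Taz depleted, against 61.6 ± 9.40 in controls, and it fell in the first comparison (log2 -3.44, adjusted p = 1.9e-06) and rose in the second (1.14, adjusted p = 0.018). Its partner dnai4, singled out after its values were seen, averaged 7.48 ± 9.54 in Vgll4l-depleted clusters and 583 ± 42.4 in Yap/Taz-depleted clusters, against 296 ± 1.43 in controls. After Yap/Taz knockdown, the heavy chain gene dnah10 was thus 4.41% of its control mean while the intermediate chain genes of the same arm were above theirs. For dnai4 the change did not pass (log2 0.97, adjusted p = 0.075), and it lay under the fold required. Its Yap/Taz libraries were separate from controls, at 538 to 636 against 294 to 297. The SE of 0.48 is shared with the Vgll4l comparison and takes in the scatter of the Vgll4l libraries. The only gene of this list that fell after Yap/Taz knockdown was cetn2, a centrin gene of low counts named after its values were seen. It averaged 0.663 ± 0.893 with Vgll4l depleted and 0 in all 4 Yap/Taz libraries, against 33.2 ± 6.55 in controls, and it fell after both knockdowns (adjusted p = 8.4e-09 and 2.4e-09). Among genes of the list with higher counts, dynll1, a light chain shared with cytoplasmic dynein, rose after Vgll4l knockdown by 1.03 (adjusted p = 6.8e-15), and dynlrb1 differed by -0.79 after Yap/Taz knockdown, less than the fold required.

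Genes for proteins that hold inner arms to the axoneme fell in most cases. Of 4 anchoring genes tested, 3 fell and 1 rose after Vgll4l knockdown, and all 4 fell after Yap/Taz knockdown (medians -4.39 and -1.69). The tether gene cfap43 averaged 10.8 ± 13.7 normalized counts with Vgll4l depleted and 355 ± 20.3 with Yap/Taz depleted, against 860 ± 90.2 in controls. The gene cfap73, whose Chlamydomonas counterpart anchors the double-headed arm, averaged 33.6 ± 7.11 in Vgll4l-depleted clusters and 6.15 ± 2.92 in Yap/Taz-depleted clusters, against 235 ± 34.9 in controls. In contrast, cfap57 rose after Vgll4l knockdown to 142 ± 23.5 and fell after Yap/Taz knockdown to 16.4 ± 5.73, against 68.4 ± 12.3 in controls. Its rise, at a log2 fold change of 1.05, no longer passed when control replicate 3, Vgll4l replicate 3 or Vgll4l replicate 4 was left out, and the number of anchoring genes that rose was then 0. Both cfap73 and cfap57 were lower after Yap/Taz than after Vgll4l knockdown, as dnah10 and dnah12 were. The reverse held for cfap43 and cfap100, which were lower after Vgll4l knockdown, as dnah7 was. The cfap100 gene averaged 0.236 ± 0.472 with Vgll4l depleted and 29.2 ± 3.35 with Yap/Taz depleted, against 75.2 ± 10.1 in controls. The anchoring genes thus did not share 1 order of the knockdowns.

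The nexin-dynein regulatory complex links neighbouring doublets and contacts the inner arms, and the ruler proteins Ccdc39 and Ccdc40 set where arms dock. Of 12 such genes tested, 9 fell, 1 rose and 2 did not pass after Vgll4l knockdown (median -2.39), and 4 fell, 2 rose and 6 did not pass after Yap/Taz knockdown (median -0.74). The gene drc3 averaged 2.60 ± 5.19 with Vgll4l depleted and 4.51 ± 2.91 with Yap/Taz depleted, against 660 ± 59.8 in controls. The ruler gene ccdc39 averaged 85.2 ± 7.79 in Vgll4l-depleted clusters and 852 ± 24.5 in Yap/Taz-depleted clusters, against 203 ± 13.9 in controls. It fell in the first comparison (log2 -1.24, adjusted p = 5e-09) and rose in the second (2.07, adjusted p = 3.1e-11). The largest fold changes upward in this list belonged to genes with few counts, tcte1 after Yap/Taz knockdown (30.1 ± 3.49, against 6.14 ± 4.09 in controls) and fbxl13 after Vgll4l knockdown (4.71 ± 0.893, against 0 in all 4 controls), both named after their values were seen. Of 13 radial spoke genes, 11 fell, 1 rose and 1 did not pass after Vgll4l knockdown (median -2.84), and 6 fell, 2 rose and 5 did not pass after Yap/Taz knockdown (median -0.14). The spoke gene rsph14 averaged 1.18 ± 2.36 with Vgll4l depleted and 0.167 ± 0.333 with Yap/Taz depleted, against 269 ± 23.0 in controls. The spoke gene that rose after Vgll4l knockdown was cfap206 (log2 2.30, adjusted p = 7.2e-09). It averaged 622 ± 151 there and 111 ± 8.53 with Yap/Taz depleted, against 123 ± 14.8 in controls. The spoke head gene rsph4a averaged 16.6 ± 4.64 in Vgll4l-depleted clusters and 228 ± 8.11 in Yap/Taz-depleted clusters, against 61.9 ± 11.8 in controls, and so rose in the second comparison (log2 1.88, adjusted p = 4.6e-07). The count of spoke genes that rose after Yap/Taz knockdown was 1 without control replicate 1, control replicate 2 or Yap/Taz replicate 2.

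Dynein arms are preassembled in the cytoplasm by dedicated factors. Of 18 assembly genes tested, 14 fell and 4 did not pass after Vgll4l knockdown (median -2.38), and 6 fell and 12 did not pass after Yap/Taz knockdown (median 0.06). The assembly factor gene lrrc6 averaged 11.1 ± 17.2 with Vgll4l depleted and 44.9 ± 8.57 with Yap/Taz depleted, against 1603 ± 177 in controls (log2 -8.00 and -5.14, adjusted p = 2.1e-08 and 2.6e-06). The gene ttc12, needed for inner arms in human cilia and singled out after its values were seen, averaged 69.7 in Vgll4l-depleted clusters and 258 in Yap/Taz-depleted clusters, against 1755 in controls. In contrast, ruvbl1, a helicase used in many cell types, averaged 1556 ± 74.2, 1759 ± 19.1 and 1612 ± 92.8 in Vgll4l-depleted, Yap/Taz-depleted and control clusters. This did not extend to ruvbl2 of the same list, which averaged 291 ± 20.2, 1175 ± 46.3 and 1030 ± 68.0 in that order. It fell after Vgll4l knockdown (log2 -1.82, adjusted p = 9.1e-12).

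**Figure D3:**
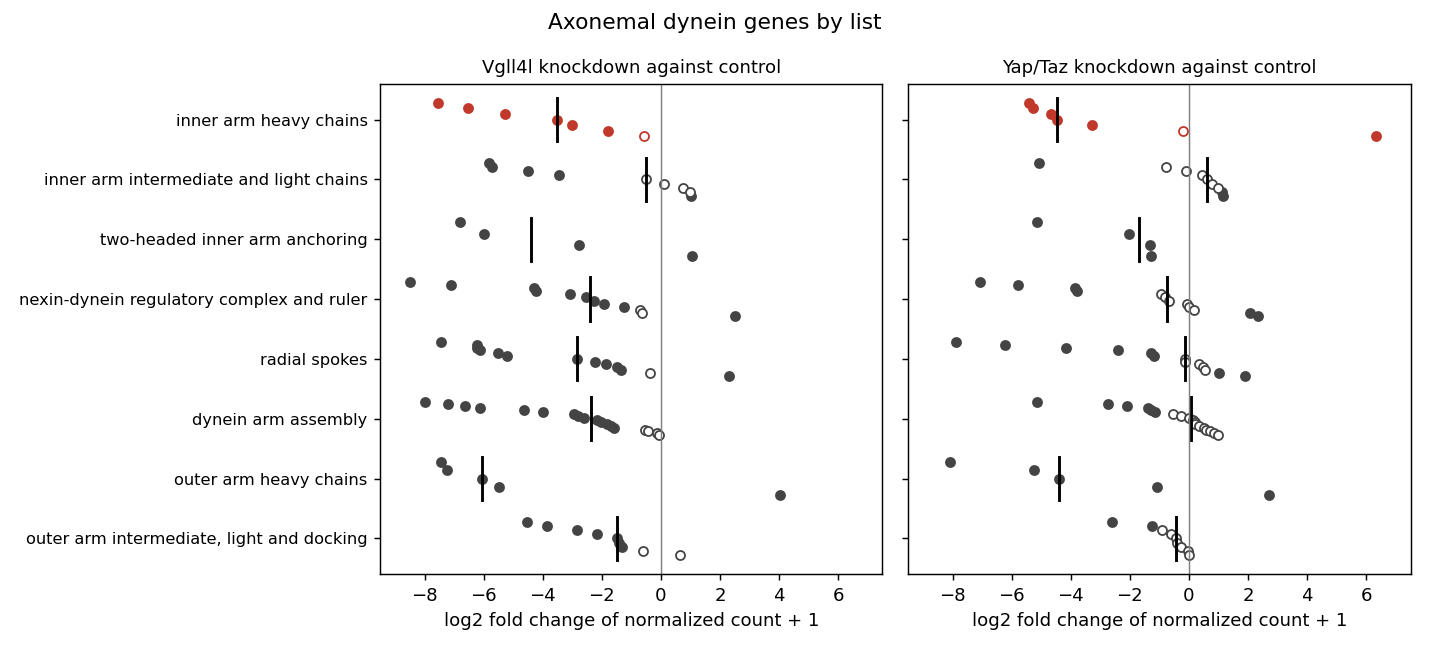
Log2 fold change of log2(normalized count + 1) for each gene of the axonemal lists, with Vgll4l knockdown against control on the left and Yap/Taz knockdown against control on the right. Filled points passed, open points did not, and a vertical bar marks the median of each list. Inner arm heavy chains, in red, have medians of -3.52 and -4.48, and outer arm heavy chains have medians of -6.06 and -4.41. The dynein arm assembly list has medians of -2.38 and 0.06.

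The outer arm gave a comparison. Of 5 outer arm heavy chain genes tested, 4 fell and 1 rose after each knockdown (median log2 fold changes -6.06 and -4.41). The inner arm heavy chain medians were -3.52 and -4.48, so low medians were not particular to the inner arms. The outer arm gene that rose was dnah9 both times. It averaged 446 ± 43.7 normalized counts with Vgll4l depleted and 177 ± 16.3 with Yap/Taz depleted, against 26.7 ± 6.17 in controls. Its relative dnah9l averaged 1.40 ± 1.80 in Vgll4l-depleted clusters and 0.361 ± 0.722 in Yap/Taz-depleted clusters, against 337 ± 21.7 in controls. Of 9 outer arm intermediate, light and docking genes, 7 fell and 2 did not pass after Vgll4l knockdown, and 2 fell and 7 did not pass after Yap/Taz knockdown (medians -1.50 and -0.45). The heavy chain Dync1h1 is a motor of retrograde transport in the cytoplasm. Its gene dync1h1 averaged 38.2 ± 14.8 with Vgll4l depleted and 0.167 ± 0.333 with Yap/Taz depleted, against 1.95 ± 2.32 in controls. So low a level for that gene is a measured fact of this table, and its cause was not tested.

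Transcription factors of the ciliary programme were lower as well. Of 8 such genes tested, Vgll4l knockdown lowered 7 and raised 1, and with Yap/Taz knockdown 6 were lower and 2 higher. The master regulator of motile cilia foxj1a averaged 4300 ± 99.6 in Vgll4l-depleted clusters and 5206 ± 73.2 in Yap/Taz-depleted clusters, against 22546 ± 1111 in controls (log2 -2.39 and -2.11, adjusted p = 1.5e-15 and 6.9e-15). The gene gmnc, a regulator of multiciliated cells in other tissues, averaged 1.18 ± 2.36 with Vgll4l depleted and 0.866 ± 1.26 with Yap/Taz depleted, against 287 ± 25.0 in controls. The factor rfx3 averaged 0.671 ± 0.457 in Vgll4l-depleted clusters and 95.4 ± 12.1 in Yap/Taz-depleted clusters, against 41.3 ± 7.41 in controls. The factor rfx4 averaged 193 ± 44.7 with Vgll4l depleted and 49.6 ± 8.16 with Yap/Taz depleted, against 1.04 ± 1.44 in controls. The rfx3 gene, singled out after its values were seen, was higher after Yap/Taz knockdown than in controls (adjusted p = 0.00065), as dnah3 was. Unlike dnah3, which was near 0 in controls, rfx3 fell after Vgll4l knockdown (log2 -4.69, adjusted p = 5.9e-10). Of the other Rfx genes, rfx1a, rfx1b and rfx2 fell after both knockdowns and rfx4 rose after both. A link between rfx3 and dnah3 was not tested.

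Reads from a stretch that overlapping genes share cannot be assigned to either gene without strand. The annotated neighbours of the 7 genes were therefore read out, a step chosen after the values were seen. Overlap was taken from whole gene spans, and whether exons overlap was not tested. In the RefSeq annotation of GRCz12tu, 3 protein-coding genes overlapped members. The gene lyrm1 overlaps dnah3 and averaged 0.657 ± 0.446 normalized counts after Vgll4l knockdown. It had 28.6, 38.3, 19.5 and 35.8 after Yap/Taz knockdown, against 0, 0, 3.38 and 5.92 in controls. It rose with dnah3 after Yap/Taz knockdown (log2 3.71, adjusted p = 3e-05). The flanking genes of dnah3 did not: kcnj12a was at 0 in every library, and dcun1d3 averaged 5.20 in Vgll4l-depleted clusters and 11.4 in Yap/Taz-depleted clusters, against 752 in controls. The zinc transporter gene slc39a10 overlaps dnah7 and averaged 12.1 ± 6.61 with Vgll4l depleted and 155 ± 14.2 with Yap/Taz depleted, against 66.4, 50.4, 55.2 and 63.9 in the control libraries. It fell after Vgll4l knockdown (log2 -2.34, adjusted p = 4.3e-06) and rose after Yap/Taz knockdown (1.39, adjusted p = 0.00061), where dnah7 fell. The ephrin gene efnb3b overlaps dnah2 and averaged 15.3 ± 5.72 in Vgll4l-depleted clusters and 29.3 ± 5.06 in Yap/Taz-depleted clusters, with 0 in all 4 controls. Flanking genes of other members moved in either direction. At dnah1, si:dkey-202e22.2 fell with its neighbour, averaging 14.0 with Vgll4l depleted and 0 with Yap/Taz depleted, against 350 in controls (adjusted p = 5e-07 and 1.5e-09). At dnah10, which fell, vamp5 rose after both knockdowns (102, 153 and 24.5 in Vgll4l-depleted, Yap/Taz-depleted and control clusters). At dnah6, kdm4c rose after Yap/Taz knockdown, to 12.3 against 0.282 in controls. Members were placed in the RefSeq annotation by symbol, and the deposited name of the dnah6 identifier is dnah7l. Whether kdm4c flanks the gene counted here was therefore not tested. The other flanking genes were at or near 0, did not pass (mapkapk3 at dnah1) or were not matched. How far reads of 1 gene were counted for its overlapping partner was not tested.

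**Figure D4:**
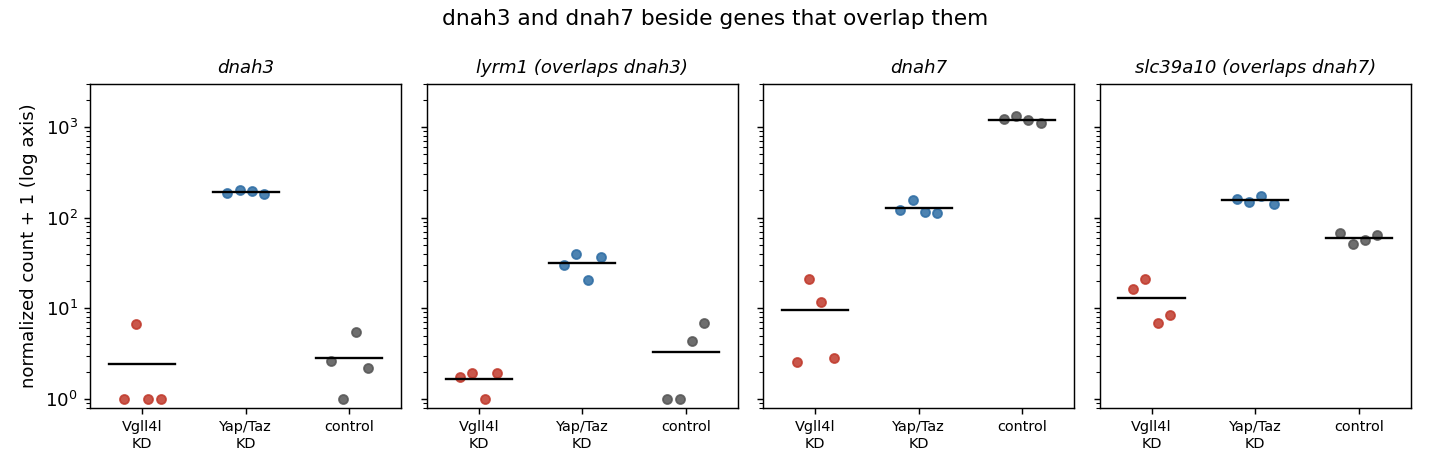
Normalized count + 1 on a log axis for dnah3 and lyrm1 and for dnah7 and slc39a10, each pair overlapping in the annotation, with 1 point per library (replicates 1 to 4 from left to right) and a line at the mean of 4 libraries. KD stands for knockdown. The genes lyrm1 and dnah3 are both highest in the 4 Yap/Taz knockdown libraries, at 19.5 to 38.3 and 182 to 200.4 normalized counts, whereas slc39a10 is highest and dnah7 intermediate there.

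For each heavy chain gene with at least 10 normalized counts on average in controls, the 3 genes with the most similar pattern were found. The pool was 9099 named genes averaging 50 or more over the 12 libraries, and likeness was Pearson's r of log2(normalized count + 1). The libraries fall into 3 groups, so r here mostly describes the order and relative spacing of the group levels. It does not take in the size of the change, so a gene that fell to 0 can reach a high r with genes that fell far less. For dnah12 these were cdc42ep4b (r = 0.998), acap2 and znf990, and for dnah10 they were dpp3 (r = 0.997), cftr and myo9aa. The chloride channel gene cftr, used in the vesicle for lumen expansion and 1 of the DFC markers, averaged 696 with Vgll4l depleted and 386 with Yap/Taz depleted, against 2566 in controls, the same order of groups as dnah10. For dnah7 they were crebbpa (r = 0.995), arhgef10 and mapk8b, and for dnah6 zgc:175136 (r = 0.995), egr1 and si:ch211-272n13.3. For dnah1 they were aldh9a1a.1 (r = 0.995), nnr and the endodermal factor sox32, another DFC marker, which averaged 12952 in Vgll4l-depleted clusters and 12884 in Yap/Taz-depleted clusters, against 27536 in controls. For dnah2 they were elp6 (r = 0.994), relt and si:dkey-90l23.2. An r over 0.99 was reached by 64 genes with dnah12 and 56 with dnah10. The numbers were 18 with dnah7, 17 with dnah6, 12 with dnah2 and 7 with dnah1. These are few of the 9099 genes, yet more than the 3 named for each member. Between the heavy chains themselves, dnah10 and dnah12 had an r of 0.99 over the same 12 libraries, the highest of 21 pairs. The r was 0.30 between dnah10 and dnah2, the heavy chains of the double-headed arm, -0.69 between dnah10 and dnah3 and -0.61 between dnah12 and dnah3.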

How the data were processed

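DFC clusters were dissected and frozen, RNA was reverse transcribed and amplified with a SMART-Seq v4 low input kit, and libraries were sequenced as 50 bp single ends. The submitters' processing notes name STAR, featureCounts, DESeq2 and GRCz10; the strand setting of the counting is not given in the sources used here, and the kit does not keep strand. The deposited signal values are gene counts scaled by the authors with 1 size factor for each library, although the file header calls them TPM: 100% of the values were whole multiples of 1 read's worth, at a tolerance of 0.001. Reads recovered so gave the library depths. The deposited log2 fold changes and adjusted p-value columns of the authors' own comparisons were not used.

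The 3 groups were fitted together in limma 3.58.1 (trend, R 4.3.3) on log2(normalized count + 1), after removal of genes averaging under 1, with Benjamini-Hochberg adjustment over all 17609 genes tested. As a count test, edgeR 4.0.16 on the recovered reads called 12588 genes (Vgll4l against control), 12184 (Yap/Taz against control) and 11377 (Vgll4l against Yap/Taz), against 12570, 12100 and 11131 in limma. Other alternatives were DESeq2 1.42.0, TMM scaling, pseudocounts of 0.5 and 10, filters, thresholds, the replicate number as a block, 2 groups alone, averaging of nearly alike libraries, and each library left out.

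The members and the 12 gene lists (126 genes, 118 matched) were chosen with earlier results of these data known. Named genes were all members, the knocked-down genes and the 3 genes most alike to each member. From the lists, genes were named from the lowest and the highest in each knockdown where some group averaged 50 or more, though not all of these were named. Others, such as cfap100, dync1h1 and ruvbl2, were named outside that rule. Intervals and floors cover counting error only where they rest on reads, since amplified reads are not independent molecules. The reference has another build than the files, so no coordinates are given, and shares of summed counts are not corrected for transcript length.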

Additional observations from a re-analysis of the deposited data

Results flagged for a closer look

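Among the 21 groups of 4 libraries formed by 7 genes and 3 conditions, 1 library lay apart from the other 3 of its group: dnah3 in Vgll4l replicate 2, with 5.66 normalized counts against 0 in the other 3 Vgll4l libraries. In 2 of the 21 groups all values were 0 and could not be examined. For normally distributed values, chance alone marks about 1 in 20 groups. That rate does not hold for the marked group, since with 3 libraries at 0 any read in the other is marked. The dnah3 value came from 6 reads. Vgll4l replicate 2 also had the highest value of its group for dnah6, dnah7 and dnah12 and the lowest for dnah10.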

How the results depend on the processing

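Over 25 alternative settings, 509 of 524 fold changes of the 7 genes kept their direction and their side of the threshold, 14 lost the call, 1 gained it (dnah3 in Vgll4l against control, without Vgll4l replicate 2) and 0 changed sign as called values. The counts against control stayed within 1.5 times the values given, at 6 to 7 lower after Vgll4l knockdown and 5 to 5 after Yap/Taz knockdown with 1 library left out. Between the knockdowns, the count of heavy chains higher after Vgll4l was 1 with a pseudocount of 10, where dnah12 was at 0.91, and 0 when a log2 fold change of at least 2 was required. That count ranged from 1 to 2 with 1 library left out, and the count lower after Vgll4l ranged from 3 to 4. At that stricter fold the count lower after Vgll4l was 2. The dnah6 difference between knockdowns was -0.64 with a pseudocount of 10 and lost its call with nearly alike libraries averaged (adjusted p = 0.28), a setting that leaves 2 control, 3 Vgll4l and 1 Yap/Taz values. Of 1800 list counts, 1689 stayed within 1.5 times.

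TMM scaling moved the median of all genes by 0.19 (Vgll4l against control), 0.13 (Yap/Taz against control) and 0.06 on the log2 scale, and the dnah2 difference for Yap/Taz against control was then -0.07 (adjusted p = 0.55).

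Libraries with the same replicate number did not deviate together, with correlations from -0.0555 to 0.0246, so the numbers do not pair them. With the replicate number as a block, limma called 12563, 12106 and 11128 genes in the 3 comparisons, and the counts of heavy chains were 6, 5 and 4 lower and 0, 1 and 2 higher, as without it.

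Low groups rest on few reads (for example 6 for dnah3, 36 for dnah7 and 48 for dnah6 in the Vgll4l group), and calls on genes at or near 0 cannot tell absence from low expression.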
